A study of Homo sapiens with 2 samples.

Results

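The 10 genes described here are feedback regulators and direct targets of Wnt/beta-catenin signalling: AXIN2, NKD1, ZNRF3, RNF43, DKK1, NOTUM, LGR5, TNFRSF19, ASCL2 and CCND1. They were taken by symbol, as every probe set whose only platform gene symbol was exactly one of these names, which gave 20 of the 54675 probe sets on the array. Total RNA came from HCT116, an established human colorectal carcinoma line that carries an activating mutation of the beta-catenin gene CTNNB1. Cells of both groups underwent lipid transfection with siRNA and RNA was taken 2 days later. One sample received a control siRNA (the control array) and one received siRNAs against both JMJD1A and JMJD1B (the double-siRNA array). JMJD1A and JMJD1B, now named KDM3A and KDM3B, remove methyl groups from lysine 9 of histone H3. With 1 array in each group, no value below has a replicate error or a test. A difference is one between these arrays and not an estimate for the treatments.

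In Wnt signalling, a secreted Wnt protein bound by Frizzled and LRP5 or LRP6 at the cell surface spares beta-catenin from the destruction complex, and beta-catenin then activates target genes together with TCF/LEF factors. Several of those targets act back on the pathway as inhibitors, outside the cell, at the membrane and in the cytoplasm. Others mark intestinal stem cells or drive cell division. In colorectal cancer cells with mutated APC or CTNNB1 the nuclear end of the pathway is active without a Wnt signal, while inhibitors of ligand or receptor act upstream of that lesion.

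The 10 genes did not all differ in 1 direction. CCND1 and AXIN2 gave lower signals on the double-siRNA array, TNFRSF19 and NOTUM gave higher signals, and DKK1, ZNRF3 and RNF43 differed by 1.20-fold or less on the deposited scale. LGR5, ASCL2 and NKD1 were too dim for a fold to be interpreted. A probe set was counted as measured when its mean log2 signal over both arrays reached the non-control median, which corresponds to a signal of 50.4, and it is called dim below that filter. Of the 20 probe sets, 9 were measured and 11 were dim, and 7 genes had at least 1 measured probe set. Of the 9, 2 read at least 2-fold higher on the double-siRNA array and 2 read at least 2-fold lower, against 8.89% and 10.4% of all 27307 measured probe sets. One of the higher, of TNFRSF19, passed the filter only through the array where it was high. With the trend of the ratio with signal removed by loess, 2 were higher and 1 was lower, against 9.03% and 9.94%, and after quantile normalization the counts were again 2 and 1, against 9.09% and 9.85%. The median log2 ratio of the 9, double-siRNA over control, was -0.23, beside 0.00017 for all measured probe sets. The 9 probe sets belong to 7 genes, so these are small counts.

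**Figure D1:**
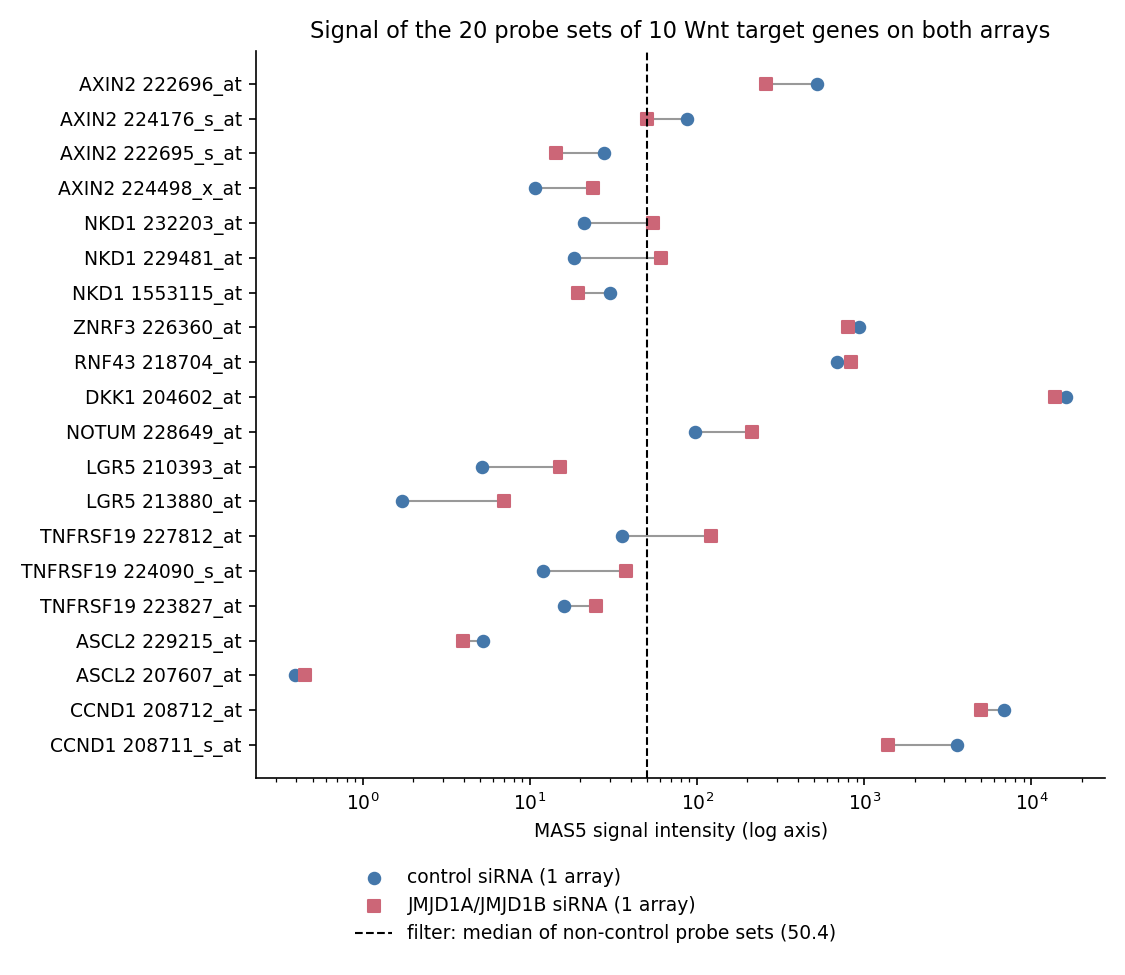
MAS5 signal intensity (log axis) of each of the 20 probe sets on the control siRNA array (circles) and the JMJD1A/JMJD1B siRNA array (squares), 1 array each, with the signal filter of 50.4 as a dashed line. All probe sets of NKD1, LGR5 and ASCL2 have a mean log2 signal under the filter, while DKK1 and both CCND1 probe sets read above 1000 on both arrays.

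The arrays were checked against their labels and scaling. The KDM3B probe sets kept 16.4% and 11.4% of the control signal on the double-siRNA array, and the measured KDM3A probe set kept 85.6%. The KDM3A difference, a log2 ratio of -0.22, was within the scatter between probe sets given below, so of the named targets only KDM3B was shown to be lower at the RNA level on the deposited scale. The deposited values have the same trimmed mean on both arrays, yet all 18 probe sets for the bacterial and phage hybridization controls had ratios above 0, with a median of 0.61 on the log2 scale. Levelling the arrays on these added transcripts, here called the spike scale, would lower every log2 ratio by 0.61. As these are controls of the hybridization, that scale is an alternative setting and not a measure of RNA per cell. The source of the offset was not tested. On the spike scale 1 of the 9 measured probe sets would be 2-fold or more higher and 4 would be 2-fold or more lower, against 2.35% and 30.1% of all measured probe sets. Of the colon epithelium markers, 10 of 14 were measured, and their signals summed to 79785 on the control array and 125555 on the double-siRNA array. KRT19 and ELF3, and CDH1, named after its value was seen, were 2-fold or more higher, and CEACAM5 at least 1.88-fold higher against the filter. Over all measured genes 8.91% were higher and 8.53% were lower by at least 2-fold. KRT19 alone read 16309 and 38953 of the summed signals, and the 3 measured probe sets of ELF3 ranged from 0.48 to 2.58 on the log2 scale. KRT20 and CDX2, also named after their values were seen, stood at -0.99 and -0.46 on the log2 scale. On the spike scale 1 marker of this list would be 2-fold or more higher and 2 would be 2-fold or more lower. Over all measured genes those shares would be 2.15% and 27.7%. The part of these markers in the results was not tested. Of the fibroblast, leukocyte and endothelium markers, 2 of 9, 3 of 10 and 1 of 7 were measured, none of them 2-fold different.

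Scatter between probe sets of the same gene was the only technical yardstick. Over 6192 genes with at least 2 measured probe sets, the SD of a log2 ratio from 1 probe set was 0.54. It depended on signal, at 0.71 for mean signals from the filter to 200, 0.49 from 200 to 1000, 0.40 from 1000 to 5000 and 0.25 from 5000 upward, and it was 1.59 among dim probe sets. Of the 9 measured probe sets, 6 had a log2 ratio larger than the SD of their own signal range, and of the 11 dim ones, 3 did. Over the whole array 48.8% of measured and 32.0% of dim probe sets did, so lying beyond this SD is common and sets no member apart. Of the 7 members at or above the filter on both arrays, 4 lay beyond it. This SD covers probe behaviour within these arrays and leaves out the spread between cultures.

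**Figure D2:**
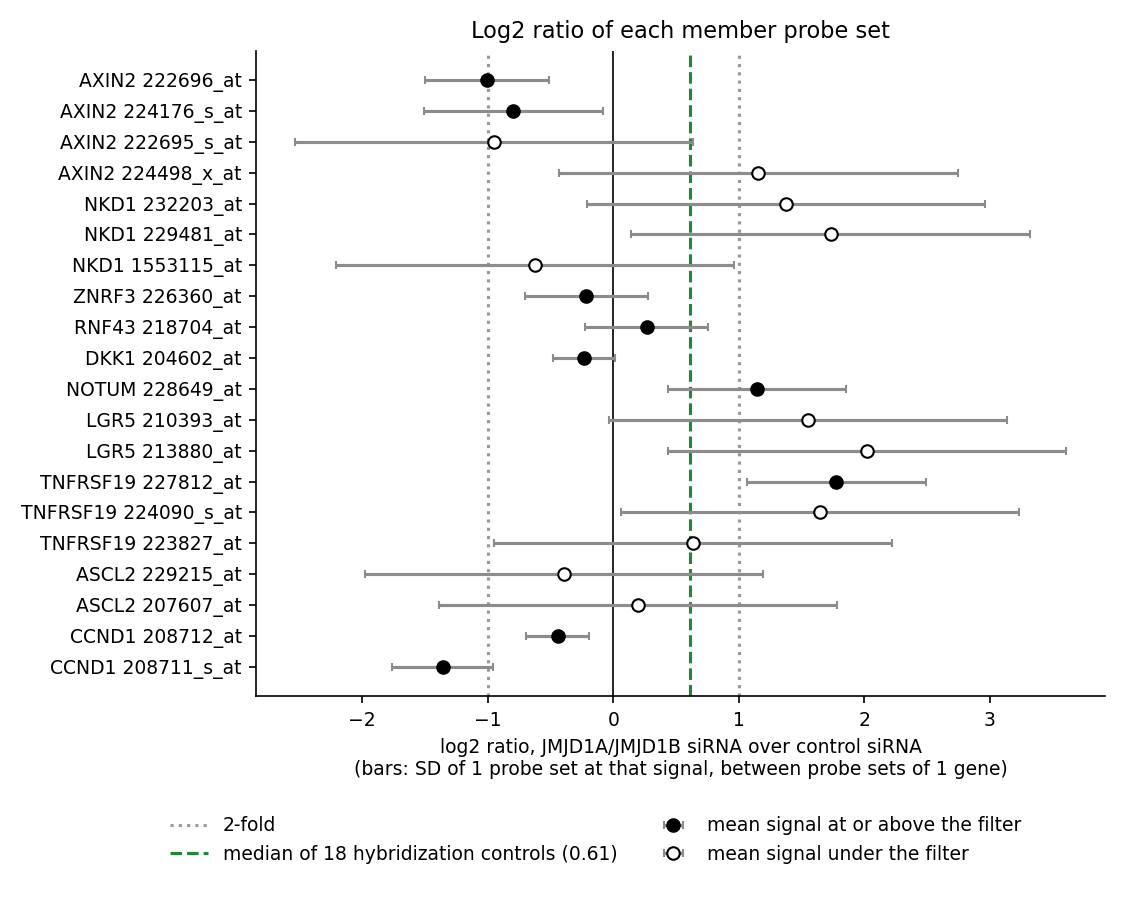
Log2 ratio of each probe set (x axis, JMJD1A/JMJD1B siRNA over control siRNA), filled where measured and open where dim, with bars of 1 SD of a probe set in the same signal range. Dotted lines mark 2-fold and the dashed line the hybridization control median of 0.61. The measured AXIN2 and CCND1 probe sets lie to the left of 0, and the bars of the dim probe sets are the widest.

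Among the secreted inhibitors, NOTUM was higher and DKK1 nearly level on the double-siRNA array by the deposited scale. NOTUM is an extracellular enzyme that inactivates Wnt proteins by removing their lipid group. Its only probe set read 96.6 on the control array and 213.7 on the double-siRNA array, both above the filter, a 2.21-fold difference with a log2 ratio of 1.15. That exceeds the SD of 0.71 at this signal. At signals from the filter to 200, 10.6% of all probe sets were higher and 10.8% were lower by at least 2-fold. NOTUM would stand at 0.53 on the spike scale, still higher but under 2-fold and within that SD.

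DKK1 binds LRP5 and LRP6 and keeps them from acting as Wnt coreceptors. Its only probe set read 16164 on the control array and 13765 on the double-siRNA array, which left 85.2% of the control signal and gave a log2 ratio of -0.23, within the SD of 0.25 at this signal. Probe sets of 5000 or more ran upward, with a median log2 ratio of 0.30, and 8.08% were at least 2-fold higher against 2.84% at least 2-fold lower. DKK1 therefore lay below the median of probe sets of similar brightness. Loess brought its ratio to -0.57 and quantile normalization to -0.55, which are beyond the SD of 0.25, and it would be -0.84 on the spike scale.

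Promoter windows from RefSeq (GRCh38.p14), running from 250 bases before to 50 bases after an annotated start, were found for DKK1, RNF43 and TNFRSF19. They were searched on both strands for the core recognised by TCF/LEF factors, taken as CTTTG followed by A or T at each of the next 2 bases. Of 35116 windows of this length 13.8% held at least 1 match. Of the 5 windows of the 3 genes, 1 did. The DKK1 window held CTTTGAA beginning 95 bases before the start. A second match, CTTTGTT, began 76 bases before it, and both were on the gene's strand. The window is printed because DKK1 was bright on both arrays and its window alone held a match, with the matches in capitals. It lies at chr10:52314031-52314330 on the plus strand. A match describes the letters and does not show binding.
DKK1: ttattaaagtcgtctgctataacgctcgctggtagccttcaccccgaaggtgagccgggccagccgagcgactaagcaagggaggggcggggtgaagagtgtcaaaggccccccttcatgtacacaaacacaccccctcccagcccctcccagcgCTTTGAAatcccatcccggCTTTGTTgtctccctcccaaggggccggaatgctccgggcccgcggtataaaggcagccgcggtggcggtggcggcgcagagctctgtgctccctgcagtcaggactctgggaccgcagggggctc

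At the membrane, ZNRF3 and RNF43 were nearly level. They are related ubiquitin ligases that clear Frizzled receptors from the cell surface and are held in check by R-spondins through LGR receptors. ZNRF3 had 1 probe set, which read 933 on the control array and 804 on the double-siRNA array, a log2 ratio of -0.22. RNF43 also had 1, which read 689 and 828, a log2 ratio of 0.27 that would turn to -0.35 on the spike scale. Both ratios lie within the SD of 0.49 at these signals, and they have opposite signs on the deposited scale. ZNRF3 would stand at -0.83 on the spike scale, beyond that SD.

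Inside the cell, AXIN2 was lower by both of its measured probe sets. AXIN2 is a scaffold of the destruction complex and a widely used readout of beta-catenin activity. The brightest probe set read 519.8 on the control array and 258.9 on the double-siRNA array, or 49.8% of the control signal, a log2 ratio of -1.01 against an SD of 0.49. At signals from 200 to 1000, 11.9% of all probe sets were at least 2-fold lower and 8.56% at least 2-fold higher. The second gave 87.3 and 50.3, a log2 ratio of -0.80 against an SD of 0.71, with the lower value just under the filter. The ratios of this pair differed by 0.21, and 69.0% of the 6192 genes with 2 measured probe sets differed by at least as much. Both thus gave a similar size of difference, although the 2-fold call rests on the brightest.

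The dim AXIN2 probe sets went opposite ways. The third read 27.8 and 14.4, a log2 ratio of -0.95, close to the measured pair. The dimmest read 10.7 and 23.7, a log2 ratio of 1.16 in the other direction, and its suffix _x_at marks probes that may also bind other transcripts. Among genes at least 2-fold lower by their brightest probe set, 47.0% of 591 dim probe sets also had a ratio above 0. The brightest AXIN2 probe set stood at -0.93 after loess and -0.92 after quantile normalization, both just under 2-fold, and would stand at -1.62 on the spike scale.

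NKD1, which binds Dishevelled and dampens the signal, was dim by all 3 probe sets, and all 3 read under the filter on the control array. One read 18.3 and 60.6, a log2 ratio of 1.73, and another read 21.0 and 54.6, a log2 ratio of 1.38. The third read 29.9 and 19.5, a log2 ratio of -0.62. The first pair did not reach the filter by mean signal and read above its value only on the double-siRNA array. With the control signal raised to the filter their differences are at least 1.20-fold and 1.08-fold. The probe sets of NKD1 thus go both ways and stay close to or under the filter.

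Of the receptors, TNFRSF19 read higher by all 3 of its probe sets, of which only 1 was measured. TNFRSF19, also called TROY, is a member of the tumour necrosis factor receptor family that is expressed in intestinal stem cells. The brightest probe set read 35.3 on the control array and 120.7 on the double-siRNA array, a log2 ratio of 1.78. It passed the filter only through the double-siRNA array, so this ratio is a description. With the control signal raised to the filter the difference is at least 2.40-fold, which leaves error in the double-siRNA signal aside. The dim probe sets read 12.0 and 37.5 (a log2 ratio of 1.64) and 15.99 and 24.8 (a log2 ratio of 0.63). The SD for dim probe sets was 1.59, close to the larger of these ratios and well above the smaller. All 3 would stay above 0 on the spike scale, at 1.16, 1.03 and 0.02. Among 472 genes with 3 probe sets of which 1 was measured, 17.4% had all 3 above 0.

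RefSeq gives TNFRSF19 more than 1 start, and both windows are printed because all probe sets of TNFRSF19 were higher on the double-siRNA array. The first lies at chr13:23570162-23570461 and has a G+C content of 49.0%. The second lies at chr13:23579110-23579409 with a G+C content of 72.7%, and both are on the plus strand. Neither held the core searched for, which says only that those letters are not in these windows. Which start was used was not measured.
TNFRSF19 first window: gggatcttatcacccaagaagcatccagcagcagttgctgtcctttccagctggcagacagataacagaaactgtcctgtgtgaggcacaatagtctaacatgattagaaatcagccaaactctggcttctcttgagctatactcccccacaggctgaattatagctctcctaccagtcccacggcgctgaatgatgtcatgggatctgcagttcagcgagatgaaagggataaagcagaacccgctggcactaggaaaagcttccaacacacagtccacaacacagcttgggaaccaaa
TNFRSF19 second window: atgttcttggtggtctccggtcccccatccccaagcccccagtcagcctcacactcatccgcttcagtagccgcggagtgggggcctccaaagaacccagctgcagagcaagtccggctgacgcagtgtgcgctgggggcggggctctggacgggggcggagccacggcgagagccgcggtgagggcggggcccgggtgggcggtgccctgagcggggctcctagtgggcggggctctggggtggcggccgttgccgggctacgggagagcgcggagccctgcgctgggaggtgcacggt

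LGR5, the R-spondin receptor that marks cycling intestinal stem cells, was dim on both arrays. Its probe sets read 5.18 and 15.2, a log2 ratio of 1.55, and 1.72 and 6.995, a log2 ratio of 2.02. All 4 signals lie far under the filter of 50.4, where 28.4% of probe sets were higher and 20.9% were lower by at least 2-fold. Of 1490 genes with 2 probe sets that were both dim, 8.19% had both at least 2-fold higher. ASCL2, a transcription factor of the same stem cells, was dim too. Its probe sets read 5.21 and 3.97, a log2 ratio of -0.39, and 0.392 and 0.449, a log2 ratio of 0.19, both well within the SD of 1.59 for dim probe sets.

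CCND1, which encodes the G1 cyclin D1, was lower by both of its probe sets, though by different amounts. The brighter read 6823 on the control array and 5014 on the double-siRNA array, which left 73.5% of the control signal, a log2 ratio of -0.44 against an SD of 0.25. At signals of 5000 or more the median log2 ratio was 0.30, and 8.08% were at least 2-fold higher against 2.84% at least 2-fold lower. The brighter CCND1 probe set stood at -0.56 after loess and -0.53 after quantile normalization, and would stand at -1.06 on the spike scale. The other, an _s_at probe set, read 3567 and 1389, which left 38.9%, a 2.57-fold difference with a log2 ratio of -1.36 against an SD of 0.40. At signals from 1000 to 5000, 9.79% of all probe sets were at least 2-fold lower and 6.78% at least 2-fold higher. Both CCND1 probe sets read above 1000 on both arrays. Their ratios differed by 0.92, and 8.67% of 1453 genes whose 2 brightest probe sets both had a mean signal of at least 1000 differed by that much or more. Which transcript forms either probe set reports was not tested. The mean of both was -0.90.

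**Figure D3:**
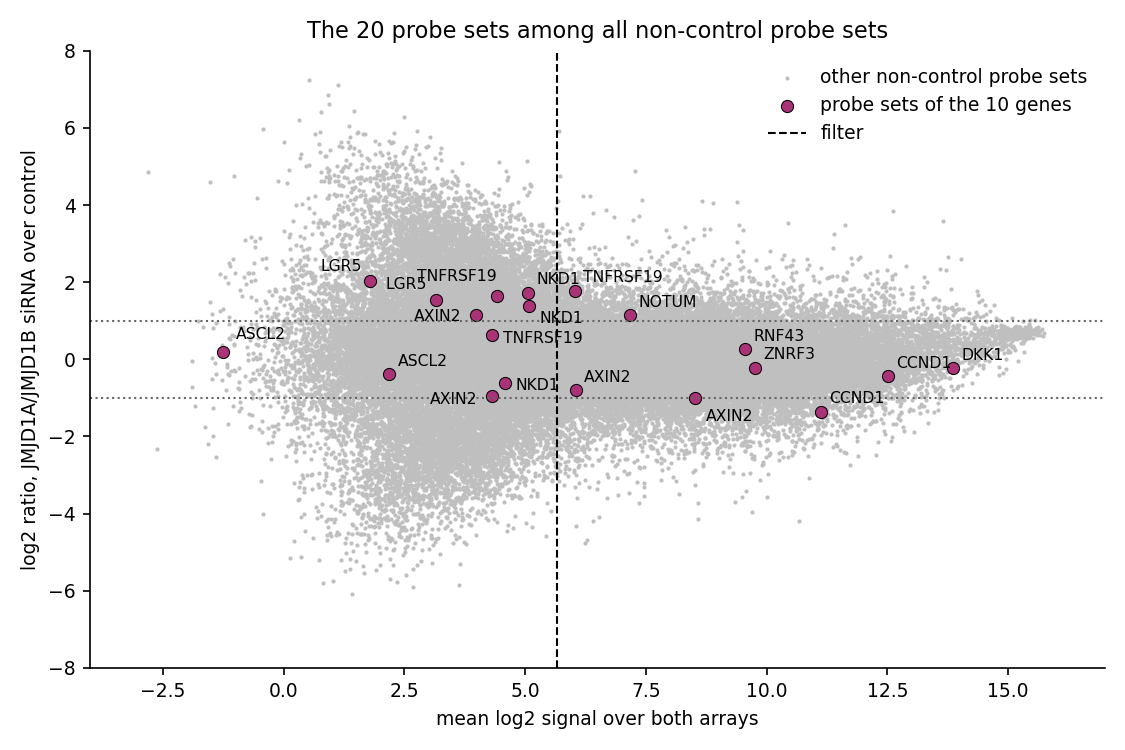
Log2 ratio (y axis) against mean log2 signal over both arrays (x axis) for all non-control probe sets (grey) and the 20 probe sets of the 10 genes (labelled points), with the filter dashed and 2-fold dotted. The dim LGR5 and NKD1 points lie inside the wide cloud of dim probe sets. The CCND1 probe set at -1.36 lies in the lower part of a narrower stretch of the cloud. At its signals, from 1000 to 5000, 9.79% of all probe sets were at least 2-fold lower.

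Of the 9 measured ones 3 had a ratio above 0 and 6 below. Of the 11 dim ones 8 were above 0 and 3 below, with 6 higher and 0 lower by at least 2-fold, where 28.4% of all dim probe sets were higher and 20.9% were lower by that much. Dim probe sets leaned upward on the whole array, with 56.0% above 0 and a median log2 ratio of 0.20. With no filter, 8 of the 20 were higher and 2 were lower by at least 2-fold, against 18.6% and 15.6% of all non-control probe sets, and the median log2 ratio turned to 0.23. Of the 6 genes with 2 or more probe sets, CCND1, LGR5 and TNFRSF19 had all of them on 1 side of 0, and AXIN2, NKD1 and ASCL2 had them on both sides. The member just under the filter was an NKD1 probe set at a mean signal of 33.9, and the one just above it was the brightest TNFRSF19 probe set at 65.3. The call for TNFRSF19 is therefore one that a stricter filter removes.

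The rest of the pathway was described from 6 lists of 131 genes, of which 85 were measured by their brightest probe set. Of these, 13 (15.3%) were higher and 7 (8.24%) were lower by at least 2-fold, against 8.91% and 8.53% of all 12561 measured genes. The lists were chosen with earlier results of these data known, so a difference from those shares cannot be told apart from the choice of list. The 13 include WNT7A, whose difference against the filter is under 2-fold, which leaves 12. When each gene's measured probe sets were averaged the counts were 10 and 5. No share over all genes is given for averaged probe sets, so these counts, and those by mean below, have no background. On the spike scale, by the brightest probe set, they would be 4 and 21, against 2.15% and 27.7% of all measured genes. The list counts below by brightest probe set have these same shares over all measured genes, on either scale. The median log2 ratio of the 85 was 0.11, beside 0.04 for all measured genes.

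Wnt proteins and the factors for their release had the highest median of the 6 lists, a log2 ratio of 0.71 over 9 measured genes that would be 0.10 on the spike scale. WNT16 read 188 on the control array and 714 on the double-siRNA array (3.80-fold, its measured probe sets at 1.81 and 1.93 on the log2 scale). WNT7B read 108 and 358 (3.32-fold), but its other measured probe set stood at 0.36. These WNT16 and WNT7B signals come from _x_at probe sets, whose probes may also bind other transcripts. WNT7A read 35.9 and 97.5, at least 1.94-fold higher against the filter. Besides these, WLS, which carries Wnt proteins to the cell surface, was 2.21-fold higher by its brightest probe set and stood at 0.88 by the mean of its probe sets. WNT10B was 2.23-fold lower. WLS and WNT10B were named after their values were seen.

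Among R-spondins and receptors, 1 of 13 measured genes was at least 2-fold higher and 0 lower, against 8.91% and 8.53% of all genes measured. The median was 0.07, or -0.54 on the spike scale. The higher gene was LGR4, a relative of LGR5 that is also an R-spondin receptor, which read 174 and 365 (2.10-fold), above the filter on both arrays. None of the R-spondin genes was measured. LRP6 and FZD3, named after their values were seen, stood at -0.35 and 0.01 by their brightest probe sets. Their measured probe sets reached -2.33 and -1.40, with means of -0.99 and -0.84. By the mean of probe sets 1 of the 13 genes was 2-fold or more higher and 0 lower. By the brightest probe set 9 were above 0 and 4 below. Among other secreted and membrane inhibitors, 6 of 17 were measured, and only FRZB, a secreted Wnt-binding protein, reached 2-fold, at 58.8 and 117.8 (2.00-fold, its other probe set at 1.35).

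Among the destruction complex and cytoplasmic relay, 17 of 19 measured genes differed by less than 2-fold by their brightest probe set. By at least 2-fold 1 was higher and 1 lower, against 8.91% and 8.53% of all measured genes. The median of the 19 was -0.15. On the spike scale 0 would be higher and 6 lower by 2-fold or more, against 2.15% and 27.7% of all measured genes. The median would be -0.76. NKD2, the close relative of NKD1, read 270.1 and 748 (2.77-fold higher) and was above the filter on both arrays, unlike NKD1. The kinase gene CSNK1E read 815 and 374 (2.18-fold lower), with its other probe set at -0.62 and a mean of -0.87. PPP2CA, named after its value was seen, stood at -0.63 by its brightest probe set. Its 3 measured probe sets reached -2.98, with a mean of -2.10. By the mean of probe sets 1 gene of this list was 2-fold or more higher and 1 lower, and the lower one was PPP2CA. AXIN1, the relative of AXIN2 that is not a feedback target, read 136 and 178, a log2 ratio of 0.38 that would turn to -0.23 on the spike scale. AXIN1 was chosen after its value was seen.

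TCF/LEF factors and nuclear cofactors ranged from -3.03 to 2.36, with 3 of 17 at least 2-fold higher, 5 lower by as much and a median of -0.50. By the mean of probe sets 3 were higher and 3 lower. On the spike scale 1 of the 17 would be higher and 9 lower by 2-fold or more, with a median of -1.11. Over all measured genes those shares would be 2.15% and 27.7%. The beta-catenin coactivator gene BCL9 read 169 and 20.7, at least 3.36-fold lower against the filter. It had 1 measured probe set, which passed the filter only through the control array, where it was high, so its ratio of -3.03 is a description. HBP1, a repressor that interferes with TCF factors, read 987 and 5062 (5.13-fold higher, its probe sets at 1.74 and 2.36). TCF7L1, which mostly represses targets, read 244 and 664 (2.73-fold higher). The remaining genes of these counts were named after their values were seen. CTNNBIP1, which keeps beta-catenin from TCF factors, read 230.4 and 612 (2.66-fold higher), and TLE5, a relative of the TLE corepressors, read 580.2 and 268 (2.17-fold lower). EP300, TLE3 and CREBBP made up the rest of the lower count.

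Of other genes reported as beta-catenin targets, 13 of 21 measured ones had a ratio above 0, with 3 at least 2-fold higher, 0 lower by that much and a median of 0.11. PLAUR, the urokinase receptor, read 2427 and 10341 (4.26-fold, its 3 probe sets between 1.72 and 2.63). SOX9, a transcription factor of crypt cells, read 3208 and 7272 (2.27-fold). The nuclear receptor gene PPARD read 1156 and 2401 (2.08-fold). SOX9 and PPARD fell short of 2-fold by the mean of their probe sets, at 0.98 and 0.93. On the spike scale 1 of the 21 would be higher and 3 lower by 2-fold or more, with a median of -0.50.

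**Figure D4:**
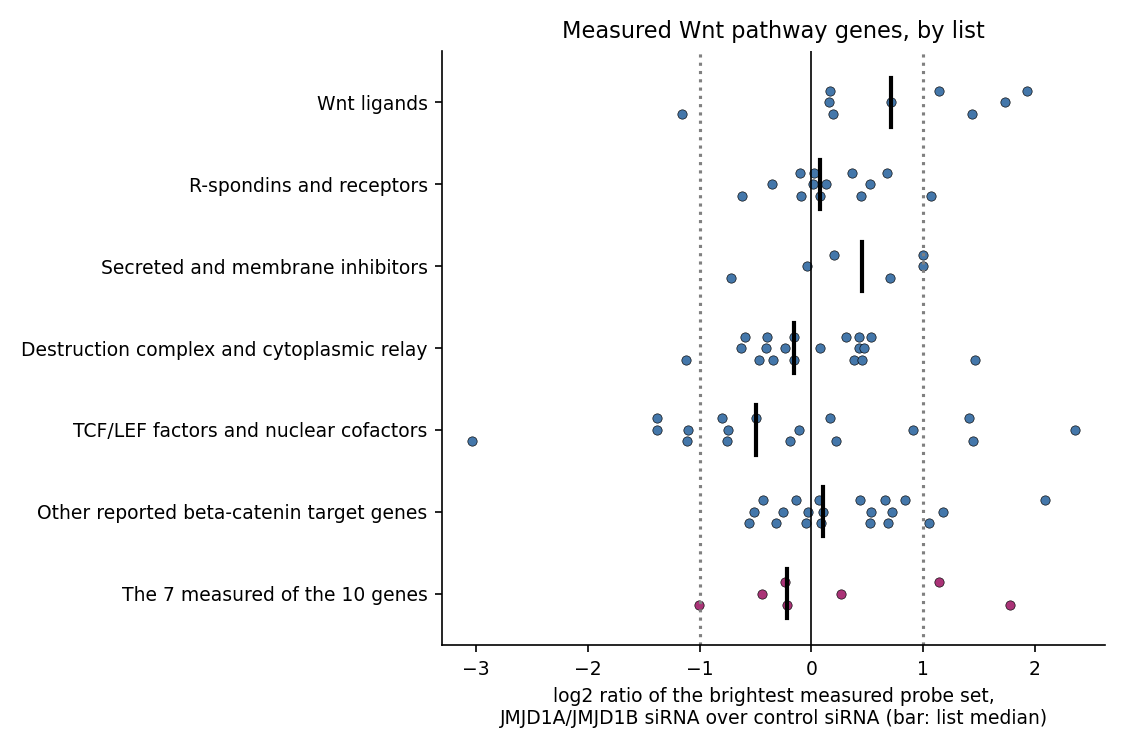
Log2 ratio of the brightest measured probe set of each gene (x axis) in the 6 pathway lists and for the 7 measured genes among the 10, with a bar at each median and dotted lines at 2-fold. The 7 genes spread over both sides of 0, from AXIN2 at -1.01 to TNFRSF19 at 1.78, and the nuclear cofactors range from -3.03 to 2.36. TNFRSF19 and BCL9, the gene at -3.03, each passed the filter only through the array where they were high.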

How the data were processed

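RNA from 2 HCT116 samples, 1 per group, was measured on single-channel oligonucleotide arrays. The authors deposited 1 linear signal intensity per probe set. Per the submitters' processing notes it came from MAS5, whose version and settings are not given in the sources used here. The 2% trimmed mean was 500.1 on both arrays. Gene names came from the platform annotation, updated through gene identifiers for the pathway lists. Log2 was taken with no pseudocount. Members were kept by probe set, and list genes by their brightest measured probe set. Alternatives were 4 scalings, a pseudocount of 16, 3 filters, 3 rules for probe sets and folds of 1.5 and 3. The members and lists were chosen with earlier results of these data known. Named genes were the 10 members, KDM3A, KDM3B, and per list up to 3 genes with the largest change among those at least 2-fold, or the 1 largest where none was. Genes outside this rule are said to be so where named. On simulated data with 200 of 27307 probe sets changed 4-fold and a noise SD of 0.2, 100% were recovered and 12 unchanged ones called, a check of the calculation only. The number of arrays limits the precision. Python 3.11.15, numpy 2.4.6, pandas 2.3.3 and statsmodels 0.14.6 were used.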

Additional observations from a re-analysis of the deposited data

How the results depend on the processing

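The count of 2 measured probe sets at least 2-fold higher became 1 on the spike scale, 1 with the filter required on both arrays, 1 with a mean signal of at least 100, 1 at a threshold of 3-fold and 8 with no filter. The count of 2 at least 2-fold lower became 1 after loess, after quantile normalization, with a pseudocount of 16, without _x_at and _s_at probe sets and with 1 probe set per gene. It became 4 on the spike scale and 0 at 3-fold. With the pseudocount 7.39% of all measured probe sets were higher and 8.96% lower by at least 2-fold. With 1 probe set per gene the shares were 8.91% and 8.53% of measured genes. Shares for the spike scale, loess, quantile normalization and no filter are given above. None is given for the stricter filters, the 3-fold threshold or the removal by suffix, so those counts have no background. The median log2 ratio of -0.23 moved to -0.84 on the spike scale, -0.56 after loess and -0.53 after quantile normalization, and turned to 0.23 with no filter. The cause was not tested beyond what each setting leaves out. Of 37 recomputed values of the 7 measured genes, 36 kept their sign, and the exception was RNF43 on the spike scale. Many of these signs could not have turned, so the count is no measure of robustness. A pseudocount keeps every sign, and the mean of 2 negative ratios is negative. The spike scale and the scaling to the same median lower every ratio, so a negative one stays negative. Signal over background limits NKD1, LGR5 and ASCL2. No paired analysis was possible because each group held 1 sample.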
